A study of Danio rerio with 12 samples.

Results

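The genes described here encode 9 subunits of the SRCAP and p400/Tip60 complexes, the machines that load the histone variant H2A.Z onto chromatin. They were taken by their Ensembl identifiers and were srcap, ep400, kat5a, vps72, znhit1, actr6, yeats4, dmap1 and ruvbl1, 9 of the 32520 genes in the deposited count table. All 9 also passed the filter on low counts, as did 12293 genes in all. Total RNA was sequenced from whole zebrafish embryos at 12 hours post fertilisation (hpf), in 4 groups of 3 libraries. Wild-type embryos (AB/Tuebingen stock) received 0.1% DMSO or 100 µM 5AzadC (5-aza-2'-deoxycytidine), which is built into DNA in place of deoxycytidine and traps DNA methyltransferases. The other 2 groups, H2A.ZmCherry with DMSO and H2A.ZmCherry with 5AzadC, received the same treatments, and their genotype label is H2A.Z overexpression. Eggs were treated from just after spawning, about 50 to a well in 5 mL. How many embryos went into each library is not given here. The labels give neither the promoter of the H2A.ZmCherry construct nor the number of founder lines, and do not say whether replicates came from separate clutches or wells, so that p-values measure the spread between these libraries, which may be technical.

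H2A.Z replaces the core histone H2A in nucleosomes at promoters and enhancers. SRCAP and p400/Tip60 are large assemblies built around a SWI/SNF-like ATPase that exchanges an H2A-H2B dimer for an H2A.Z-H2B dimer, and they share several subunits. In early zebrafish embryos, nucleosomes with H2A.Z are known to mark promoters whose DNA lacks methylation. The comparisons ask whether transcripts of the loading machinery differ when DNA methylation is inhibited, when H2A.Z is tagged and overexpressed, and when both are combined.

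Library totals ran from 1142051 to 1904063 counts. Levels are given as CPM, counts relative to a fixed library total after scaling by trimmed means (TMM), on which 1 count was worth 0.521 to 0.923 CPM. CPM is not divided by gene length, so levels are compared between groups and never between genes. A gene was called when its Benjamini-Hochberg adjusted p over the 12293 tested genes was under 0.05 in edgeR's quasi-likelihood test. Every adjusted p below is from that test unless the sentence names another source. A log2 difference is followed by its approximate standard error, and ± after a level in CPM or a ratio is the SD of 3 libraries. The 2 H2A.Z genes measured in these libraries did not check the genotype label. With DMSO, the log2 difference of H2A.ZmCherry from wild type was 0.27 ± 0.09 (adjusted p = 0.0746) for h2az2b and -0.08 ± 0.21 (adjusted p = 0.906) for H2AZ2, and the sources used here do not state how reads of the construct were counted.

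In wild-type embryos 5AzadC left all 9 subunits without a call, beside 22.3% of all tested genes called. In H2A.ZmCherry embryos 2 of 9 were called, near the 17.9% of all tested genes. There ep400 fell 1.41-fold and znhit1 rose 3.32-fold. The call of ep400 held under every alternative setting tried. That of znhit1 was lost in some of them, where its log2 difference was still 1.44 to 1.76. With 5AzadC, vps72 was 1.62-fold higher in H2A.ZmCherry than in wild type. That call was lost with DESeq2 (adjusted p = 0.117) and on leaving out any H2A.ZmCherry 5AzadC library or wild-type 5AzadC replicate 1. No subunit was called between the genotypes with DMSO, beside 5.32% of all tested genes. By the test of the difference between the drug responses of the 2 genotypes none was called either, beside 3.75%.

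**Figure D1:**
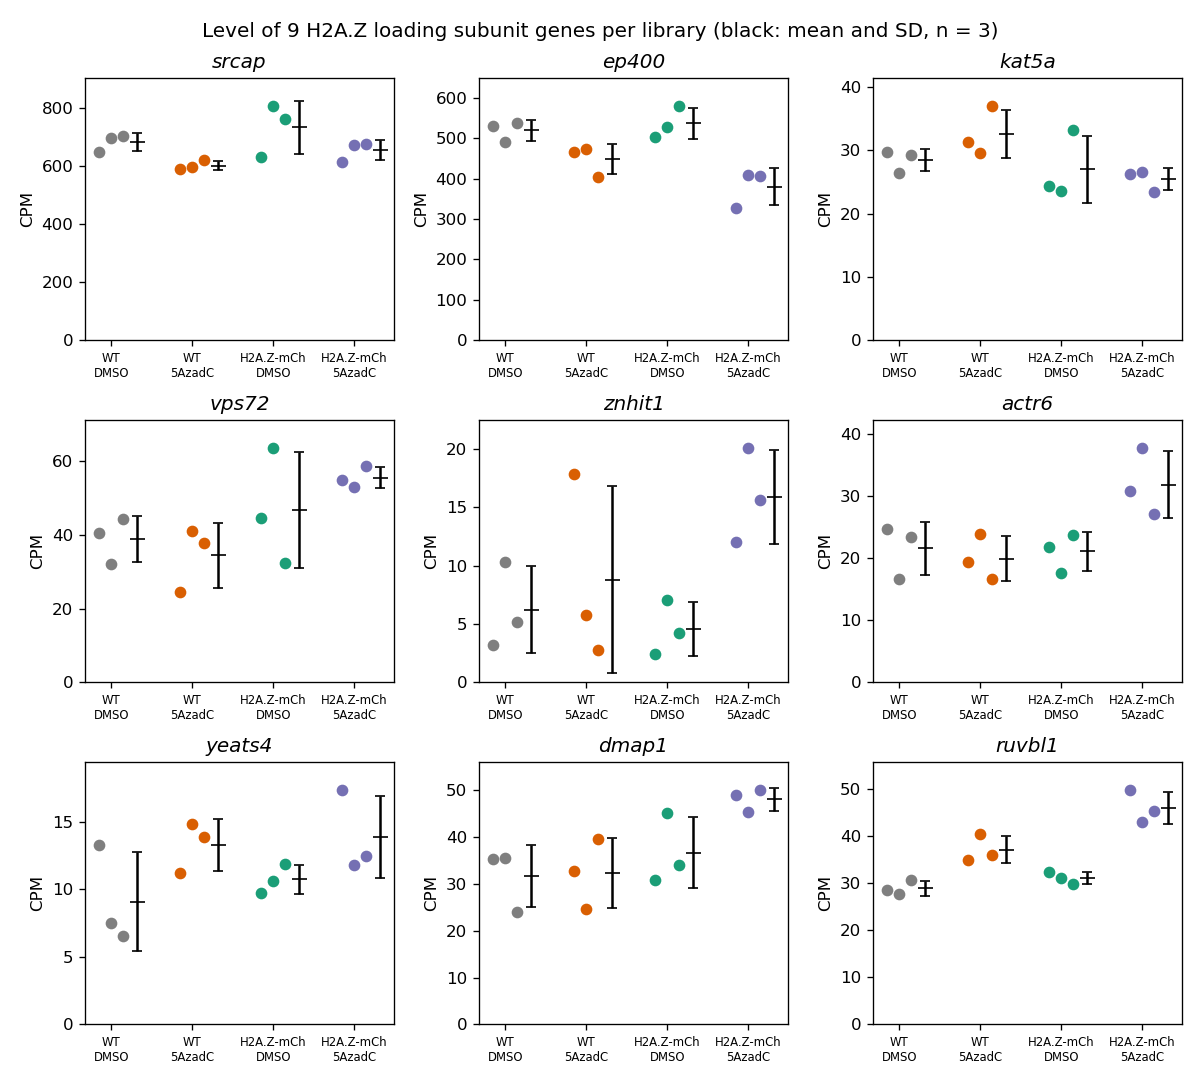
Levels of the 9 subunit genes in each of the 12 libraries, in TMM-scaled CPM on a linear axis from 0, with points for libraries and black bars for the mean and SD of 3. In the H2A.ZmCherry 5AzadC group ep400 lay at 327 to 408 CPM and in the 6 DMSO libraries at 490 to 578 CPM.

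EP400 is the ATPase of the p400/Tip60 complex. In wild-type embryos ep400 (ENSDARG00000100965) measured 529, 490 and 538 CPM with DMSO and 465, 472 and 404 CPM with 5AzadC. In H2A.ZmCherry embryos it measured 503, 528 and 578 CPM with DMSO and 327, 408 and 405 CPM with 5AzadC. The DMSO libraries of both genotypes lay above every 5AzadC library of their own genotype. Ordered by mean, the groups ran from 537 ± 38.0 CPM (SD, n = 3) in H2A.ZmCherry with DMSO through 519 ± 25.7 in wild type with DMSO and 447 ± 37.1 in wild type with 5AzadC to 380.0 ± 46.3 in H2A.ZmCherry with 5AzadC. In H2A.ZmCherry the log2 difference between 5AzadC and DMSO was -0.49 ± 0.09 (95% interval -0.68 to -0.31), with an adjusted p of 4.52e-05. The authors' deposited table, from DESeq2 on these same libraries, gives -0.50 with an adjusted p of 1.37e-05 for the same comparison. In wild type the log2 difference was -0.21 ± 0.09, which did not pass the test (adjusted p = 0.0952). Over the alternatives it ran from -0.25 to -0.14 (adjusted p from 0.0549 to 0.419), with the value nearest 0 on leaving out wild-type 5AzadC replicate 3. The difference between these responses was -0.28 ± 0.13 on the log2 scale and did not pass either (unadjusted p = 0.0387, adjusted p = 0.273). A weaker response in wild type is therefore not shown. With 5AzadC, H2A.ZmCherry differed from wild type by -0.23 ± 0.10 (unadjusted p = 0.0168), which was not called (adjusted p = 0.0851) but would be without wild-type 5AzadC replicate 3, at -0.31 with an adjusted p of 0.038. In these bulk samples, fewer cells that express a gene and less RNA per cell cannot be told apart.

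SRCAP is the ATPase of the other complex. In wild type, srcap (ENSDARG00000005236) measured 647, 697 and 701 CPM with DMSO and 588, 594 and 620 CPM with 5AzadC. In H2A.ZmCherry embryos it measured 630, 804 and 761 CPM with DMSO and 613, 670 and 675 CPM with 5AzadC. The wild-type groups did not overlap and the H2A.ZmCherry groups did. The log2 difference of 5AzadC from DMSO was -0.18 ± 0.09 in wild type (adjusted p = 0.131) and -0.17 ± 0.09 in H2A.ZmCherry (adjusted p = 0.189), neither past the threshold. The latter would pass without H2A.ZmCherry DMSO replicate 1, at -0.27 with an adjusted p of 0.0345. The response of srcap differed between the genotypes by 0.02 ± 0.12 on the log2 scale, with a 95% interval from -0.23 to 0.26.

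The ratio of ep400 counts to srcap counts within a library does not depend on the scaling between libraries. It was chosen after the values were seen and is given as a description. It averaged 0.763 ± 0.057 (SD, n = 3) in wild type with DMSO, 0.746 ± 0.081 in wild type with 5AzadC and 0.739 ± 0.073 in H2A.ZmCherry with DMSO. In H2A.ZmCherry with 5AzadC the ratio averaged 0.581 ± 0.042, and its 3 libraries ran from 0.533 to 0.609, below the 0.653 to 0.818 of the other 9 libraries. Relative to srcap, ep400 was thus lowest in the group that combined the drug with H2A.ZmCherry, a comparison of one gene with another and not of either alone.

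**Figure D2:**
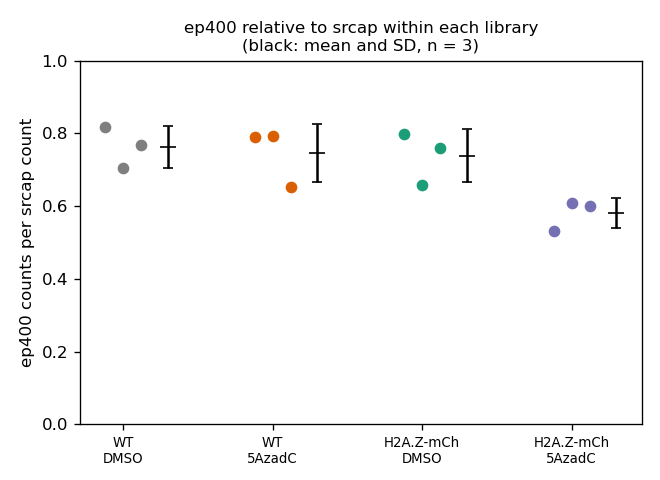
Counts of ep400 per count of srcap in each of the 12 libraries (points) with the mean and SD of 3 (black), on a linear axis from 0. The 3 H2A.ZmCherry 5AzadC libraries lay between 0.533 and 0.609 and the other 9 between 0.653 and 0.818.

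KAT5, also called Tip60, is the acetyltransferase of the p400/Tip60 complex and has the zebrafish paralogs kat5a and kat5b. kat5a (ENSDARG00000004587) had group means of 25.4 to 32.6 CPM, and single libraries ran from 23.4 to 36.9 CPM. It was not called in any comparison, and its log2 response to 5AzadC was 0.19 ± 0.27 in wild type (adjusted p = 0.681) and -0.08 ± 0.28 in H2A.ZmCherry (adjusted p = 0.888). With 5AzadC, the H2A.ZmCherry libraries (23.4 to 26.5 CPM) all lay below the wild-type ones (29.6 to 36.9 CPM), with a log2 difference of -0.36 ± 0.27 that did not pass the test (adjusted p = 0.419).

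VPS72, ZNHIT1 and ACTR6 belong to the part of the SRCAP complex that handles the histone dimer, and VPS72, also known as YL1, binds the H2A.Z-H2B dimer directly and is found in both complexes. vps72 (ENSDARG00000063718) measured 40.5, 32.2 and 44.3 CPM in wild type with DMSO and 24.6, 41.2 and 37.9 CPM in wild type with 5AzadC. In H2A.ZmCherry it measured 44.6, 63.5 and 32.3 CPM with DMSO and 54.9, 53.03 and 58.8 CPM with 5AzadC. With the drug the genotypes did not overlap, while with DMSO they did. H2A.ZmCherry was higher than wild type by 0.70 ± 0.24 on the log2 scale with 5AzadC (95% interval 0.22 to 1.18, adjusted p = 0.0351). This call was lost with DESeq2 (adjusted p = 0.117) and when 1 of 4 libraries was left out, namely wild-type 5AzadC replicate 1 (0.254) or H2A.ZmCherry 5AzadC replicate 1 (0.0723), replicate 2 (0.0609) or replicate 3 (0.111). The drug response of vps72 was -0.18 ± 0.25 in wild type (adjusted p = 0.667) and 0.23 ± 0.23 in H2A.ZmCherry (adjusted p = 0.553).

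ZNHIT1 is a zinc finger subunit needed for H2A.Z deposition by SRCAP. znhit1 (ENSDARG00000054574) had few counts, 5, 18 and 8 in wild type with DMSO and 24, 7 and 3 with 5AzadC. In H2A.ZmCherry the counts were 3, 12 and 5 with DMSO and 16, 34 and 30 with 5AzadC. On the CPM scale the H2A.ZmCherry libraries rose from 2.43, 7.05 and 4.25 with DMSO to 12.04, 20.03 and 15.6 with 5AzadC, without overlap, while the wild-type groups overlapped. The log2 difference in H2A.ZmCherry was 1.73 ± 0.53 (95% interval 0.67 to 2.79), with an adjusted p of 0.0146. DESeq2 did not call it (adjusted p = 0.0551). The authors' deposited table, also from DESeq2 on these libraries, gives 1.76 with an adjusted p of 0.0551 and is not a separate result. The call was also lost without H2A.ZmCherry DMSO replicate 1 (adjusted p = 0.0808) or replicate 3 (0.053), or without H2A.ZmCherry 5AzadC replicate 2 (0.0952). In wild type the response was 0.52 ± 0.54 (adjusted p = 0.552), with 1 high library among the 3 given 5AzadC. The response differed between genotypes by 1.217 ± 0.765, which did not pass the test (adjusted p = 0.46). With 5AzadC, znhit1 was higher in H2A.ZmCherry than in wild type by 0.81 ± 0.49 (adjusted p = 0.286). That difference became 1.86 and passed (adjusted p = 0.0402) when wild-type 5AzadC replicate 1 was left out.

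ACTR6 is an actin-related protein of the same module. actr6 (ENSDARG00000021370) measured 21.9, 17.6 and 23.8 CPM in H2A.ZmCherry with DMSO and 30.9, 37.7 and 27.1 CPM with 5AzadC. These groups did not overlap, but the log2 difference of 0.60 ± 0.30 was not called (adjusted p = 0.155). In wild type the libraries measured 24.7, 16.7 and 23.5 CPM with DMSO and 19.4, 23.9 and 16.6 CPM with 5AzadC, a log2 difference of -0.11 ± 0.31 (adjusted p = 0.859). The H2A.ZmCherry 5AzadC libraries also lay above all wild-type 5AzadC libraries, by 0.67 ± 0.30 on the log2 scale, again not past the threshold (adjusted p = 0.125).

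YEATS4, DMAP1 and RUVBL1 are shared by both complexes. RUVBL1 is an AAA+ ATPase that helps assemble them and also works in other complexes. ruvbl1 (ENSDARG00000002591) measured 28.5, 27.6 and 30.6 CPM in wild type with DMSO and 34.99, 40.3 and 36.01 CPM with 5AzadC. In H2A.ZmCherry it measured 32.4, 31.2 and 29.7 CPM with DMSO and 49.7, 43.01 and 45.3 CPM with 5AzadC. The 5AzadC libraries of each genotype lay above all 6 DMSO libraries, and the group means rose in the order 28.9 ± 1.56 (SD, n = 3) in wild type with DMSO, 31.1 ± 1.33 in H2A.ZmCherry with DMSO, 37.1 ± 2.84 in wild type with 5AzadC and 45.99 ± 3.38 in H2A.ZmCherry with 5AzadC. Despite this separation ruvbl1 was not called. Its log2 response was 0.36 ± 0.25 in wild type (adjusted p = 0.333) and 0.56 ± 0.24 in H2A.ZmCherry (unadjusted p = 0.0232, adjusted p = 0.0999), and at 35 to 87 counts a library its standard error was more than that of ep400.

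DMAP1 bridges subunits of both complexes. dmap1 (ENSDARG00000042087) measured 30.8, 45.3 and 34.0 CPM in H2A.ZmCherry with DMSO and 48.9, 45.4 and 49.98 CPM with 5AzadC. The lowest treated library exceeded the highest DMSO library by a small margin, and the log2 difference of 0.37 ± 0.24 was not called (adjusted p = 0.305). With 5AzadC, H2A.ZmCherry lay above wild type (32.8, 24.7 and 39.7 CPM) by 0.57 ± 0.25, also not called (adjusted p = 0.107). YEATS4, or GAS41, carries a YEATS domain that binds acylated histone tails. yeats4 (ENSDARG00000045874) ran from 6.52 to 17.3 CPM over all 12 libraries and was called in no comparison, with adjusted p from 0.417 to 0.959.

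Few of the 9 subunits were called in any comparison, and the counts are given beside the share of all tested genes that was called. For 5AzadC against DMSO in wild type, 0 of 9 were called by edgeR and 0 by DESeq2, against 22.3% of all tested genes. In edgeR 2 had an unadjusted p under 0.05, beside 3962 of the 12293 tested genes. For the same comparison in H2A.ZmCherry, 2 of 9 were called against 17.9% of all tested genes, 1 higher against 8.84% and 1 lower against 9.03%, which is near the background. For H2A.ZmCherry against wild type, 0 of 9 were called with DMSO by either tool (background 5.32%). In edgeR 0 had an unadjusted p under 0.05 there, beside 2097 of the 12293 tested genes. With 5AzadC, 1 of 9 was called, the higher vps72, against 15.6% in either direction and 8% higher. For the difference between the drug responses 0 of 9 were called by edgeR against 3.75%, and DESeq2 called 0 of the 7 to which it gave an adjusted p. In edgeR 1 had an unadjusted p under 0.05, beside 1982 of the 12293 tested genes.

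A looser description is whether the libraries of the groups overlap at all. The 2 groups did not overlap for 3 of 9 subunits in wild type with the drug (srcap and ep400 lower, ruvbl1 higher), against 35.2% of all tested genes. In H2A.ZmCherry 5 of 9 did not overlap (ep400 lower, and znhit1, actr6, dmap1 and ruvbl1 higher), against 33.2%. Between the genotypes it was 0 of 9 with DMSO (background 21.5%) and 5 of 9 with 5AzadC (background 30.4%), with kat5a lower and vps72, actr6, dmap1 and ruvbl1 higher. The median log2 response of the 9 subunits to 5AzadC was 0.02 in wild type and 0.36 in H2A.ZmCherry, where the medians of all tested genes were 0.0061 and 0.018. Standard errors in the H2A.ZmCherry comparison ran from 0.09 for srcap to 0.53 for znhit1, and they were larger for the subunits with few counts than for the 2 ATPase genes.

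**Figure D3:**
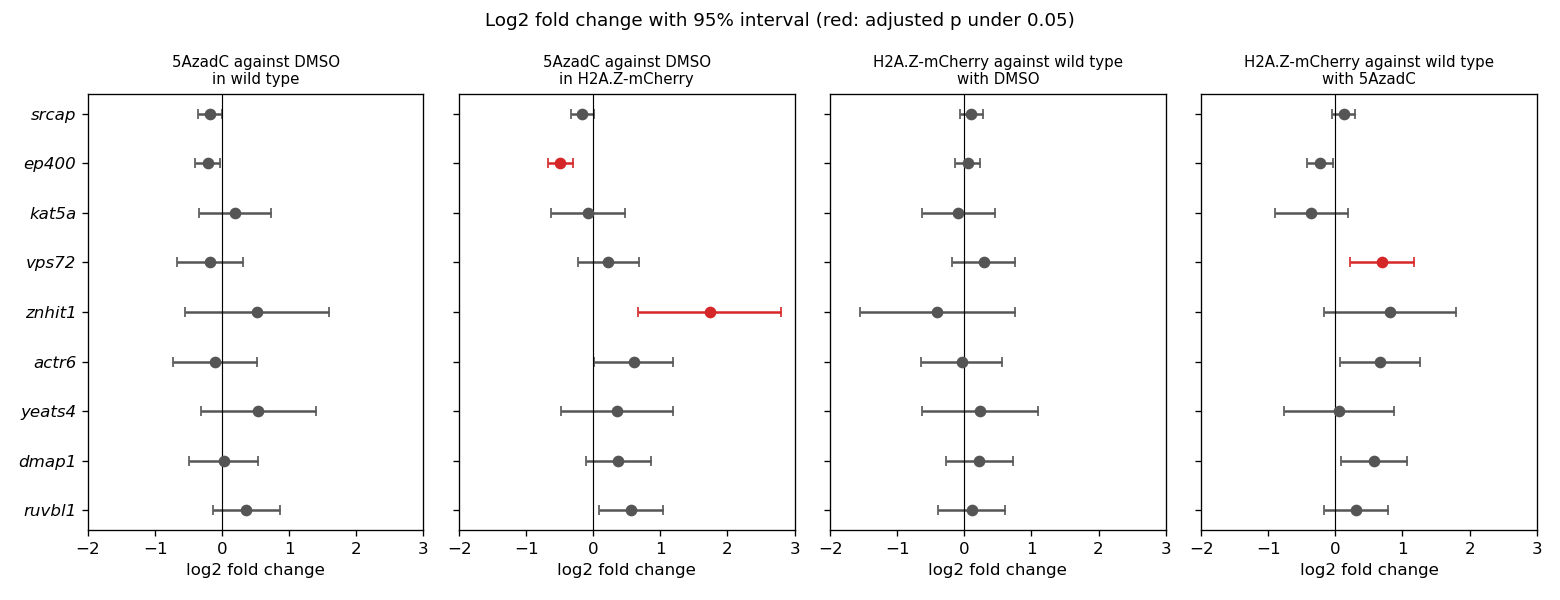
Log2 differences of the 9 subunit genes in the 4 comparisons between groups, with points for the estimates and bars for the 95% intervals, in red where the gene was called. In H2A.ZmCherry the response to 5AzadC was -0.49 for ep400 and 1.73 for znhit1, and the intervals of znhit1 are the widest.

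Pairs of subunits varied across the 12 libraries with either sign. Of 36 pairs, 20 had a positive Pearson correlation of log2 CPM, with a median r of 0.11 and a range from -0.87 to 0.64 over libraries that share treatment and genotype differences. The genes whose log2 CPM most resembled that of srcap over the 12 libraries, among 9515 genes with a mean of at least 10 CPM, were TRA2B (r = 0.91), RTEL1 (0.89) and PABPN1 (0.87). For ep400 they were KMT2D (r = 0.95), ASH1L (0.94) and RALGAPB (0.93).

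Other subunits of the same complexes were read from a list of 14 genes. Of these, 9 were tested, 1 BRD8 gene (ENSDARG00000055999) fell under the filter, and 4 (RUVBL2, ACTL6A, MORF4L1 and MRGBP) had 0 counts in all 12 libraries. The 9 tested genes (EPC2, BRD8, ING3, kat5b, both EPC1 genes, MBTD1, TRRAP and MEAF6) encode p400/Tip60 subunits. They do not cover further subunits of SRCAP. Of all 32520 genes in the count table, 7468 (23.0%) were at 0 in every library. A count of 0 in all 12 libraries allows a mean level over them of up to 0.169 CPM (3 of 17776450 counts, counting error only). For a single library or group the limit is higher, since 1 count in 1 library was worth 0.521 to 0.923 CPM. Such limits apply to counts in the table and not to expression if reads of these genes were dropped or counted elsewhere, which was not tested. RUVBL2 is the usual partner of RUVBL1, which was measured. In wild type 2 of 9 rose with 5AzadC and none fell, a share at the background of 22.3% of all tested genes called. EPC2, a scaffold subunit of p400/Tip60, rose by 0.65 ± 0.17 in log2 terms (adjusted p = 0.00212). The acetyltransferase gene kat5b, the paralog of kat5a, rose by 0.81 ± 0.22 (adjusted p = 0.00397), from 32.96 ± 6.70 to 57.8 ± 8.72 CPM (SD, n = 3). Reads shared by kat5a and kat5b may have been split between them or dropped, since the sources used here do not state how such reads were handled. The median log2 difference of the 9 was 0.25.

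In H2A.ZmCherry 2 of these 9 rose and 2 fell with 5AzadC, around a median log2 difference of -0.25, where 8.84% of all tested genes rose and 9.03% fell. kat5b rose by 0.56 ± 0.21 (adjusted p = 0.0464) and MEAF6, a small subunit of acetyltransferase complexes, by 0.82 ± 0.29 (adjusted p = 0.0351). TRRAP, the large scaffold protein of p400/Tip60, fell by 0.25 ± 0.08 (adjusted p = 0.0256), from 863 ± 40.05 to 725 ± 11.3 CPM (SD, n = 3). The bromodomain gene BRD8 (ENSDARG00000025071) fell by 0.49 ± 0.17 (adjusted p = 0.0289). None of the 4 calls held in all 18 alternatives: kat5b kept its call in 7, MEAF6 in 11 and TRRAP and BRD8 in 13 each. The call of kat5b was lost without wild-type DMSO replicate 3, without any 1 H2A.ZmCherry DMSO library, or without H2A.ZmCherry 5AzadC replicate 2 or 3, with adjusted p from 0.0506 to 0.286. That of MEAF6 was lost without H2A.ZmCherry DMSO replicate 1 or 3 or any 1 H2A.ZmCherry 5AzadC library (adjusted p from 0.0532 to 0.192). TRRAP lost its call without H2A.ZmCherry DMSO replicate 3 or any 1 H2A.ZmCherry 5AzadC library (0.0639 to 0.123). BRD8 lost its call without replicate 1 or 3 of either H2A.ZmCherry group (0.0969 to 0.195). DESeq2 did not call kat5b (adjusted p = 0.0997), MEAF6 (0.0667) or BRD8 (0.0644). With no filter the calls of kat5b (0.0642), MEAF6 (0.0642) and TRRAP (0.0803) were lost. The call of kat5b was also lost with size factors as in DESeq2 (0.0506), upper quartile factors (0.0525) and the replicate block (0.0565).

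**Figure D4:**
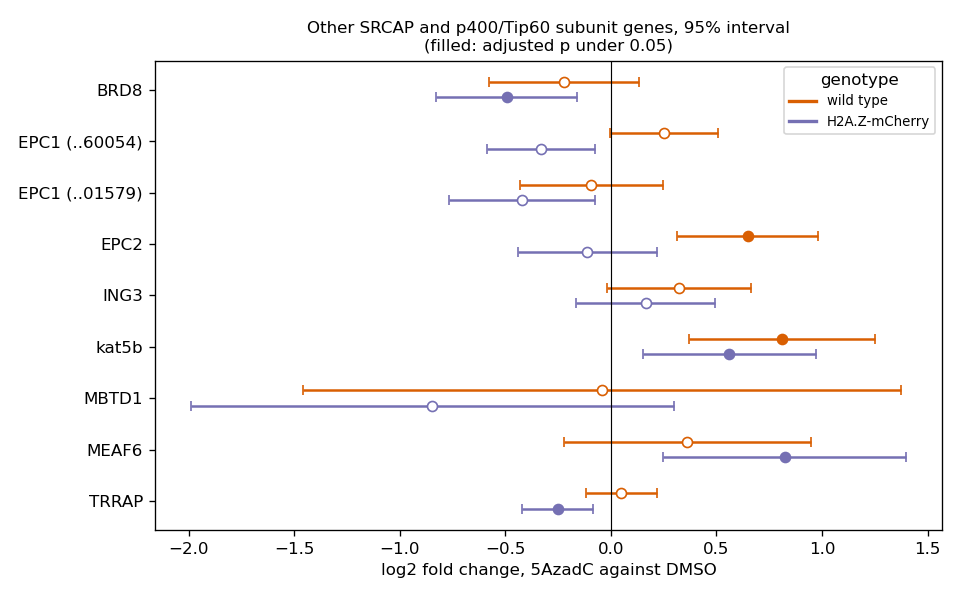
Log2 fold changes of the 9 other tested subunit genes for 5AzadC against DMSO, in wild type (orange) and H2A.ZmCherry (purple), with bars for the 95% intervals and filled points where the gene was called. EPC2 lay at 0.65 in wild type and at -0.11 in H2A.ZmCherry, and kat5b was called in both genotypes.

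With DMSO, none of the 9 other subunits was called between genotypes by edgeR, beside 5.32% of all tested genes, and 0 by DESeq2. In edgeR 5 of the 9 had an unadjusted p under 0.05, beside 2097 of the 12293 tested genes. With 5AzadC, 1 of the 9 was called between genotypes, beside 15.6% of all tested genes. This was EPC1 (ENSDARG00000060054), lower in H2A.ZmCherry with a log2 difference of -0.43 ± 0.13 (adjusted p = 0.0128). Its call was lost without wild-type 5AzadC replicate 1 (adjusted p = 0.107) or without H2A.ZmCherry 5AzadC replicate 2 (0.124). The other EPC1 gene (ENSDARG00000101579) had a log2 difference of -0.45 ± 0.17 and was not called (adjusted p = 0.0696). By the test of the difference between drug responses, 1 of the 9 was called, EPC2, beside 3.75% of all tested genes. EPC1 (ENSDARG00000060054) fell just short there, at -0.58 ± 0.18 (adjusted p = 0.0503). The drug response of EPC2 differed between genotypes by -0.76 ± 0.24 (adjusted p = 0.0491), and this call held in 3 of 17 alternatives. It was lost without any 1 library other than wild-type 5AzadC replicate 1 and H2A.ZmCherry 5AzadC replicate 3 (adjusted p of up to 0.135). DESeq2 (0.0577), upper quartile factors (0.0565), no filter (0.0863) and the replicate block (0.0554) lost it too.

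INO80 is the ATPase of a complex that remodels H2A.Z nucleosomes, and ANP32E is a chaperone that removes H2A.Z. Of 14 tested genes of that list, 1 rose and 2 fell with 5AzadC in wild type, near the 22.3% of all tested genes called there. These were UCHL5 (0.97 ± 0.37, adjusted p = 0.0449, kept in 6 of 18 alternatives), YY1 ENSDARG00000027978 (-0.64 ± 0.20, adjusted p = 0.011, kept in 17) and ANP32E (-0.30 ± 0.10, adjusted p = 0.0293, kept in 12). UCHL5 lost its call without any 1 wild-type library other than 5AzadC replicate 2 and without H2A.ZmCherry 5AzadC replicate 1 or 2 (adjusted p from 0.0501 to 0.287). It was also lost with DESeq2 (0.128), upper quartile factors (0.0515), no filter (0.0604), only the groups of the contrast (0.0664) and the replicate block (0.0539). YY1 lost its call without wild-type DMSO replicate 1 (0.0756), and ANP32E without wild-type DMSO replicate 1 or 2 or wild-type 5AzadC replicate 1 or 3 (0.064 to 0.132). The ANP32E call was also lost with DESeq2 (0.0602) and with no filter (0.0619). In H2A.ZmCherry 0 rose and 2 fell, a share not above the 17.9% of all tested genes. INO80 fell by 0.52 ± 0.11 (adjusted p = 0.000261), kept in all 18 alternatives, and INO80D fell by 0.59 ± 0.19 (adjusted p = 0.0224), kept in 14 and lost without H2A.ZmCherry DMSO replicate 1 or 3 or H2A.ZmCherry 5AzadC replicate 2 or 3 (0.0533 to 0.192). With the drug, 3 of 14 were called between genotypes, beside 15.6% of all tested genes. H2A.ZmCherry exceeded wild type in ANP32E by 0.44 ± 0.10 (adjusted p = 0.0013), kept in all 18, and in YY1 ENSDARG00000042796 by 0.69 ± 0.20 (adjusted p = 0.0097), kept in 16, while INO80D was lower, with a log2 difference of -0.57 ± 0.19 (adjusted p = 0.0342), kept in 12. The YY1 call was lost without replicate 3 of either 5AzadC group (0.0782 and 0.0817), and the INO80D call without replicate 2 or 3 of either (0.0842 to 0.219). This INO80D call between genotypes was also lost with DESeq2 (0.0734) and with no filter (0.0603). By the test of the difference between drug responses 0 of the 14 were called, beside 3.75% of all tested genes. With DMSO 0 of the 14 were called between genotypes, beside 5.32%. In wild type INO80 changed by -0.25 ± 0.11 with 5AzadC, which was not called (adjusted p = 0.104). Its responses differed by -0.27 ± 0.16 (adjusted p = 0.414), so a weaker response in wild type is not shown.

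The H2A.Z gene h2az2b rose with 5AzadC from 394 ± 34.2 to 694 ± 44.6 CPM in wild type (log2 difference 0.82 ± 0.09, adjusted p = 1.46e-11) and from 473 ± 32.1 to 758 ± 80.04 CPM in H2A.ZmCherry (0.68 ± 0.09, adjusted p = 1.05e-08). H2AZ2 also rose, by 0.57 ± 0.21 in wild type (adjusted p = 0.0382, kept in 11 of 18) and by 0.77 ± 0.21 in H2A.ZmCherry (adjusted p = 0.00456, kept in 18). The wild-type call of H2AZ2 was lost without replicate 1 or 2 of either wild-type group (adjusted p from 0.0663 to 0.151). It was also lost with DESeq2 (0.0800), no filter (0.0619) and upper quartile factors (0.0505). The response of h2az2b did not differ past the threshold between genotypes (-0.14 ± 0.13, adjusted p = 0.657). These paralogs may share reads, and how such reads were divided is not stated.

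Tissue and cell cycle markers moved in the same comparisons. In H2A.ZmCherry with 5AzadC, 5 of 15 tested muscle markers fell and 0 rose, 7 of 20 neural markers fell and 1 rose, 7 of 15 epidermal markers rose and 0 fell, and 3 of 19 replication genes fell and 1 rose. Of all tested genes 9.03% fell and 8.84% rose, so the replication count lay closest to the background. The summed muscle level ran from 5724 to 6150.5 CPM with DMSO and from 3254 to 4213 CPM with 5AzadC. For the neural list these ranges were 1283 to 1341 CPM and 1047 to 1116 CPM, for the epidermal list 4605 to 5665 CPM and 5351 to 6789 CPM, and for the replication list 3797 to 4122 CPM and 3288 to 3605 CPM. DES, ACTC1 and TNNC2 of the muscle list, ZIC2 of the neural list, epcam and cldni of the epidermal list and CDC6 and CCNE1 of the replication list were at 0 counts in all libraries. In wild type 9 muscle, 13 neural and 11 replication genes fell, and 13 epidermal genes and 1 muscle gene rose, beside 22.3% of all tested genes called in either direction. Between the genotypes with 5AzadC, where vps72 was higher in H2A.ZmCherry, 7 neural, 7 replication, 2 muscle genes and 1 epidermal gene were higher, and 9 epidermal, 2 replication genes and 1 muscle gene were lower, beside 15.6% of all tested genes. With DMSO, 7 epidermal genes, 1 neural gene and 1 replication gene were higher in H2A.ZmCherry. There 2 epidermal, 2 muscle and 3 replication genes and 1 neural gene were lower, beside 5.32% of all tested genes called in either direction. In wild type the summed muscle level ran from 6217 to 7060 CPM with DMSO and from 3036 to 3365 CPM with 5AzadC. For the neural list these wild-type ranges were 1185 to 1321 CPM and 653 to 798 CPM. For the epidermal list they were 5714 to 6520 CPM and 10531 to 12770.0 CPM. For the replication list they were 4166 to 4284 CPM and 2589 to 3028 CPM. The part of these markers in the results for ep400, znhit1 and vps72 was not tested.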

How the data were processed

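Each of the 12 libraries has a column of raw counts per Ensembl gene, deposited by the authors without normalization. The submitters' processing notes name STAR, featureCounts 2.0.3, Subread, DESeq2 1.22.2, deepTools and GRCz11, without role or order. The annotation, strand setting and treatment of reads with several matches are not stated in those sources. The authors also deposited DESeq2 tables per genotype with a mean normalised signal, log2 fold changes, a Wald score and p-values, used here only where named.

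The analysis used edgeR 4.0.16 under R 4.3.3. The filterByExpr function kept 12293 of 32520 genes (98.5% of counts), TMM scaling was applied, and all 12 libraries entered 1 robust quasi-likelihood fit with 1 coefficient per group and 5 contrasts. Standard errors were derived as the absolute log2 difference divided by the root of its F statistic. Total counts per library of 1142051 to 1904063 limit precision most for znhit1 and yeats4, and any limit computed from counts covers counting error alone. Replicates were distinct libraries, with a chi-square per degree of freedom of 2.37 to 3.08. The code was tested on simulated data. Alternatives were DESeq2 1.42.0, size factors as in DESeq2 and upper quartile factors in edgeR, no filter, only the groups of a contrast, a replicate block and leaving out each library.

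The 9 genes and the gene lists were chosen with earlier results of these data known. The rule for named genes took all 9, called genes of the other subunits, and for the INO80 and H2A.Z lists at most 3 called genes per contrast. For srcap and ep400 it took the 3 genes most alike. The reference tables of this study's organism gave names only, and all 9 identifiers matched.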

Additional observations from a re-analysis of the deposited data

Results flagged for a closer look

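EPC2, a scaffold subunit of p400/Tip60 outside the 9 genes, stood out because its response to 5AzadC differed between the genotypes by the test of that difference. The difference was -0.76 ± 0.24 on the log2 scale (adjusted p = 0.0491, edgeR). EPC1 (ENSDARG00000060054) fell just short of the threshold at -0.58 ± 0.18 (adjusted p = 0.0503, edgeR). The other EPC1 gene (ENSDARG00000101579) was not called, at -0.33 ± 0.24 (adjusted p = 0.553, edgeR). Whether the difference is particular to EPC2 was not tested. Of the 9 other tested subunits, EPC2 included, 8 had a negative difference, where 51.2% of all tested genes had a positive one. Of the same 9, EPC2 included, 3 had an unadjusted p under 0.05 (edgeR), beside 1982 of the 12293 tested genes. In wild type EPC2 measured 68.7 ± 7.86 CPM (SD, n = 3) with DMSO and 108 ± 13.3 CPM with 5AzadC. In H2A.ZmCherry it measured 87.8 ± 3.09 CPM with DMSO and 81.1 ± 9.94 CPM with 5AzadC. The call held in 3 of 17 alternatives. It was lost with DESeq2 (adjusted p = 0.0577), upper quartile factors (0.0565), no filter (0.0863) and the replicate block (0.0554), and on leaving out any library other than wild-type 5AzadC replicate 1 and H2A.ZmCherry 5AzadC replicate 3, with adjusted p of up to 0.135.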

How the results depend on the processing

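Over 45 subunit differences and 799 values under alternatives, 764 kept direction and side of the threshold, 9 calls were lost, 3 were gained and 23 signs changed, 22 of them on leaving out 1 library. The fall of ep400 in H2A.ZmCherry was called in all 18 alternatives, from -0.54 to -0.40 on the log2 scale, with adjusted p from 1.37e-05 to 0.00345. Called subunits for 5AzadC in H2A.ZmCherry were 1 with DESeq2 in place of 2, and 1 to 2 on leaving out 1 library. For H2A.ZmCherry against wild type with 5AzadC they were 0 with DESeq2 in place of 1, and 0 to 2. For the other subunits in H2A.ZmCherry with 5AzadC, 1 was called with no filter and 1 with DESeq2 in place of 4, and 0 to 4 on leaving out 1 library. The cause of these shifts was not tested. Under upper quartile factors the wild-type drug response of dmap1 was -0.00625 in place of 0.02. Signs that changed on leaving out 1 library had these ranges on the log2 scale. The wild-type drug response ran from -0.33 to 0.034 for vps72, -0.53 to 1.102 for znhit1, -0.26 to 0.014 for actr6 and -0.14 to 0.18 for dmap1, and that of kat5a in H2A.ZmCherry from -0.17 to 0.082. The genotype difference with DMSO ran from -0.00071 to 0.10 for ep400, -0.25 to 0.012 for kat5a, -0.013 to 0.50 for vps72, -0.91 to 0.19 for znhit1 and -0.20 to 0.086 for actr6. With 5AzadC it ran from -0.13 to 0.16 for yeats4, and the response difference of srcap from -0.087 to 0.093.

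Same-numbered replicates did not deviate together (r from -0.026 to 0.019), so the numbers were not taken as pairs. With the replicate number as a block, called subunits stayed at 0, 2, 0, 1 and 0 in the 5 contrasts, and called other subunits were 2 in wild type and 3 in H2A.ZmCherry for 5AzadC. The interaction has no fit with only its groups, since it uses all 4, and znhit1 fell under the filter with only the groups of the wild-type drug and DMSO genotype contrasts. Depth limits the subunits of few counts most: znhit1 had 3 to 34 counts per library.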
